A study of Mus musculus with 8 samples.

Results

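The alpha-arrestin family was examined in the hearts of fasted and satiated mice through 5 genes, Txnip, Arrdc1, Arrdc2, Arrdc3 and Arrdc4. Members were taken by name, as the non-control probes whose accession maps to one of these symbols in the RefSeq gene table, and not by their measured values. All 5 were found among the 18217 named genes of the array, with 7 probes in all, 2 each for Txnip and Arrdc4 and 1 each for the others. Every one of the 7 probes was well above background on all 8 arrays. The transcripts of each whole heart had been read on an Agilent expression array of its own in 1 colour, and the animals were C57BL/6J males aged 9 weeks. Hearts came from mice fasted for 2 days with free access to water (4 samples) and from satiated mice (4 samples). The satiated mice were fed the same standard pellet diet and given no treatment. Each numbered sample is called a heart below, and the spread between samples may be technical. C57BL/6J is a common inbred laboratory strain, and neither group carried an allele or agent that the labels name.

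Alpha-arrestins are adaptor proteins with an arrestin fold and short proline-tyrosine motifs that bind the WW domains of Nedd4-family ubiquitin ligases, and through these they direct membrane proteins into endosomes. Txnip, thioredoxin-interacting protein, is the best known of them: it binds reduced thioredoxin, and it promotes the uptake of the glucose transporters GLUT1 and GLUT4 from the cell surface. Its gene is switched on by the glucose-sensing factors MondoA and ChREBP, which work with Mlx on paired E-box-like sites, and Arrdc4, its close relative, answers to the same factors.

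The 250 bases before the annotated starts of Txnip and Arrdc4 are shown because 3 of the 4 probes of these genes rose, both of Txnip and 1 of the 2 of Arrdc4. They come from the RefSeq promoter table of build GRCm38.p6, which held all 5 members, and are written 5′ to 3′ on the strand of the gene. The Txnip stretch is chr3:96557707-96557956 on the plus strand, the Arrdc4 stretch chr7:68749239-68749488 on the minus strand. Capitals mark matches to any motif searched.
Txnip: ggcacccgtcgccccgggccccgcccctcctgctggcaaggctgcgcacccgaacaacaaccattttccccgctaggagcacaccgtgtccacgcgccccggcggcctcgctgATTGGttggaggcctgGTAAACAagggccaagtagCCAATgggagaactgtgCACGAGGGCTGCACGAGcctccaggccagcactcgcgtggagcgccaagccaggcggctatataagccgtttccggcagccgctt
Arrdc4: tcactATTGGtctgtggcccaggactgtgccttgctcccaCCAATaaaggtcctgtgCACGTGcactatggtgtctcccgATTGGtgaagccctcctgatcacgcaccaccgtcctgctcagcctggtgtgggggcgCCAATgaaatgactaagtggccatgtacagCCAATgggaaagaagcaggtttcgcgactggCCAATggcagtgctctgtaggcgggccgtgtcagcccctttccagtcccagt

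All motifs were searched on both strands. The E-box was CACGTG, the CCAAT box was CCAAT, the forkhead motif was TGTTTAC and the TATA box was TATAAA. The carbohydrate response element form joined the sites CACGNG and, after 5 bases, CNCGNG. The glucocorticoid response element form joined the sites AGAACA and, after 3 bases, TGTTCT. In Txnip the carbohydrate response element form lay at positions -85 to -69, a match that 0.280% of 32851 promoter windows of that length hold. A forkhead match lay at positions -121 to -115 of Txnip, counted from the start, as in 3.17% of windows with at least 1, and CCAAT matches lay on either side of it. The Arrdc4 window held 1 E-box, present in 6.02% of windows, and 6 CCAAT matches, a number that 0.0578% of windows reach. Arrdc2 had 3 CCAAT matches, as many as 2.79% of windows have, and the window of Arrdc1 had no match to any of these motifs. Of the 3 annotated starts of Arrdc3, 2 had 1 CCAAT match each, which 33.8% of windows hold. The windows of these 2 starts overlap, and the match, at -173 from one and -211 from the other, is the same site. Within a window, no matches overlapped one another. These matches describe the letters of the windows, and no binding was measured.

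**Figure D1:**
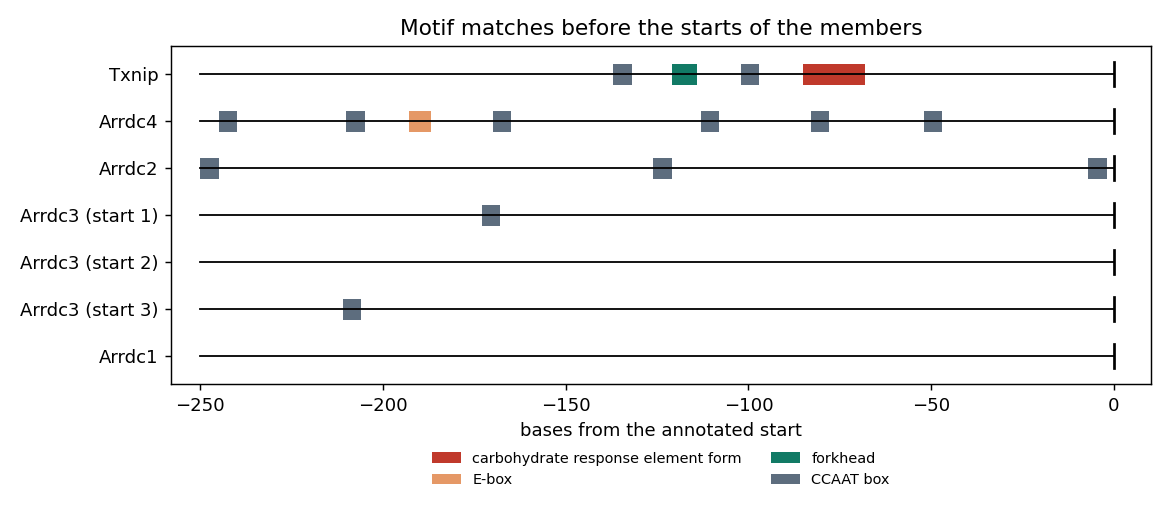
Positions of motif matches in the 250 bases before each annotated start of the 5 members (horizontal axis, bases from the start, which is the vertical tick at the right end; 1 line per start). Txnip is the line with the carbohydrate response element form, at -85 to -69, and Arrdc4 the line with 6 CCAAT matches and an E-box.

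Txnip was higher in every fasted heart than in any satiated heart, by both of its probes. Values are given below as scaled signal, the background-subtracted intensity of a probe divided by the 75th percentile of its array, and these can be compared between hearts but not between probes. The brighter Txnip probe, A_51_P438805, read 53.3, 73.6, 69.8 and 55.9 in fasted replicates 1 to 4, against 37.6, 16.3, 19.97 and 16.8 in satiated replicates 1 to 4. The groups did not overlap, and satiated replicate 1 stood nearest to the fasted hearts. Its mean was 5.97 ± 0.23 in fasted and 4.41 ± 0.56 in satiated hearts on the log2 scale (SD, n = 4 each). Txnip thus rose 2.94-fold, a log2 fold change of 1.55 ± 0.27 (SE, fasted minus satiated), with an adjusted p of 0.00688 in limma over all genes tested. In whole hearts such a rise can come from more transcript per cell or from more cells that hold it, and these cannot be told apart.

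The second Txnip probe, A_52_P420792, had scaled signals of 2.25, 3.08, 2.32 and 1.95 in fasted replicates 1 to 4, against 1.64, 0.679, 0.609 and 0.542 in satiated replicates 1 to 4. Again satiated replicate 1 was the highest of its group and lay below every fasted heart. The rise by this probe was 3.04-fold (log2 fold change 1.602 ± 0.34, adjusted p = 0.0137 in limma over single probes), and its change differed from that of the first probe by 0.05 on the log2 scale (exact permutation test over the 8 hearts, two-sided, p = 0.657). Within slides, the first probe rose by 1.34 on slide 1 and by 1.77 on slide 2. Among all genes tested, 1.73% had a larger rise than Txnip.

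Arrdc4 gave different answers by its 2 probes. Probe A_51_P482908, placed on transcript NM_025549, had scaled signals of 1.01, 1.08, 1.55 and 1.24 in fasted replicates 1 to 4, against 0.271, 0.307, 0.350 and 0.340 in satiated replicates 1 to 4. The groups lay far apart, and both slides showed it, with log2 fold changes of 1.85 on slide 1 and 2.01 on slide 2. By this probe Arrdc4 rose 3.81-fold (log2 fold change 1.93 ± 0.17, adjusted p = 0.000531 in limma over single probes), the largest change of the 7 probes.

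Probe A_51_P111612, placed on transcript NM_001042592 of the same gene, read 0.905, 0.592, 0.486 and 0.830 in fasted replicates 1 to 4, against 0.552, 0.942, 0.655 and 0.872 in satiated replicates 1 to 4. These groups overlapped fully, and the highest and the lowest of the 8 readings lay 1 in each group. Its log2 fold change was -0.11 ± 0.25, with a 95% interval of -0.69 to 0.46 and an adjusted p of 0.803 in limma over all genes. This probe stood for Arrdc4 in the comparison of genes because its mean log2 signal over the 8 arrays was the higher of the pair. That choice decided whether Arrdc4 counted as changed, and it was a narrow one, since A_51_P482908 had the higher signal in all 4 fasted hearts and the higher mean on the linear scale. The changes by the 2 probes differed by 2.05 on the log2 scale, with an exact permutation p of 0.0286, the smallest this design allows, and 0.0571 after adjustment over the 2 genes that had 2 probes. Both accessions belong to Arrdc4 in the RefSeq table. The files do not say which bases the probes read, and whether the transcripts differ in their response was not tested.

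**Figure D2:**
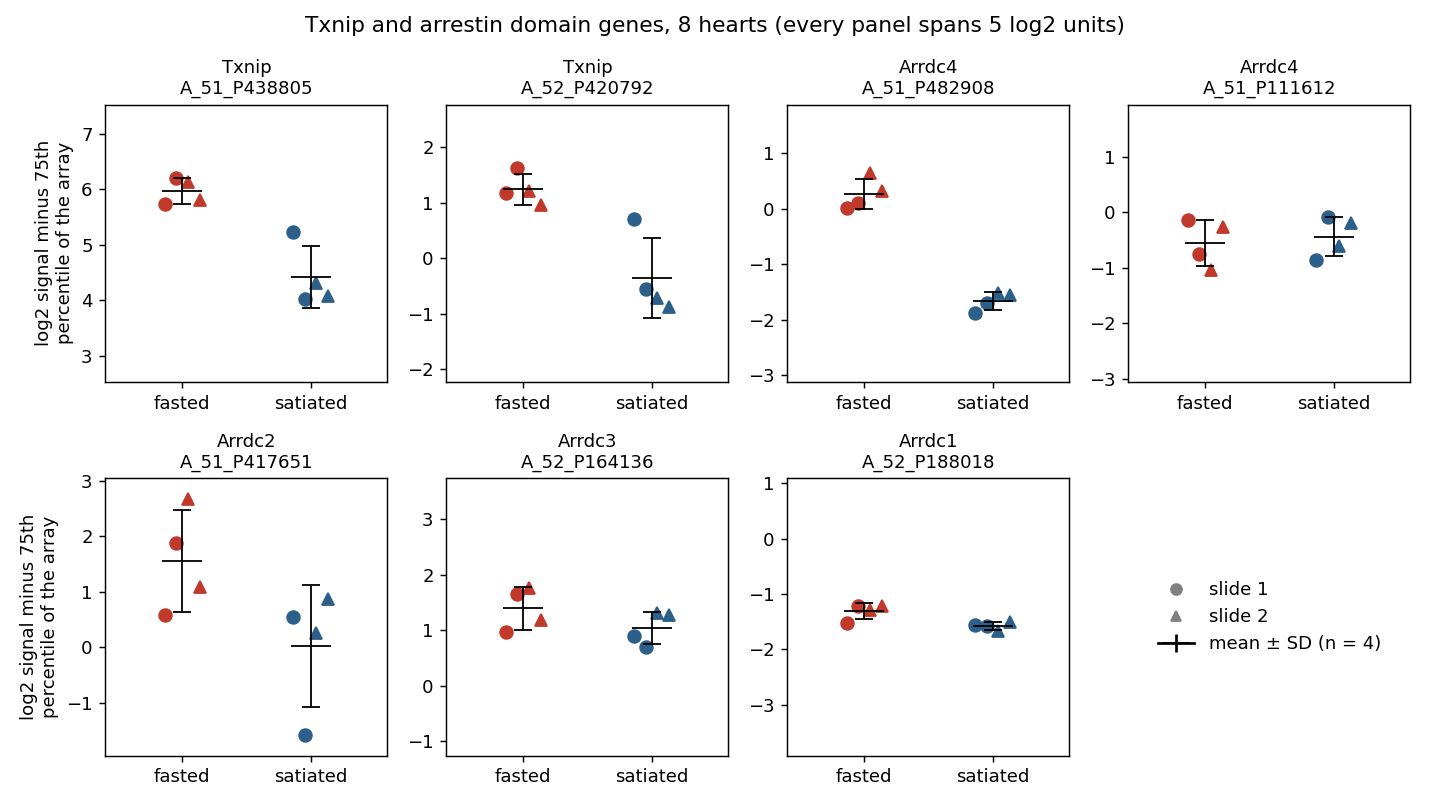
Log2 signal of each member probe minus the 75th percentile of its array (vertical axis) in fasted hearts and in satiated hearts, with 1 point per heart, circles for slide 1 and triangles for slide 2, and bars for mean ± SD (n = 4 each). Both Txnip probes and Arrdc4 probe A_51_P482908 part the groups, whereas Arrdc4 probe A_51_P111612 and the probes of Arrdc2, Arrdc3 and Arrdc1 overlap.

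Arrdc2, another alpha-arrestin, had a high mean in fasted hearts but varied widely within both groups. Its scaled signal was 1.496, 3.70, 6.36 and 2.11 in fasted replicates 1 to 4, against 1.47, 0.334, 1.20 and 1.82 in satiated replicates 1 to 4. Fasted replicate 3 was the highest and satiated replicate 2 the lowest, and fasted replicate 1 lay inside the satiated range. The log2 fold change was 1.53 ± 0.61 (2.89-fold), close in size to that of Txnip, yet it did not pass (adjusted p = 0.119 in limma, unadjusted p = 0.0363, 95% interval 0.12 to 2.94). Without satiated replicate 2 it was 0.995 (adjusted p = 0.217). The SD on the log2 scale was 0.92 in fasted and 1.097 in satiated hearts, against 0.23 and 0.56 for the brighter Txnip probe.

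Arrdc3, which binds beta-adrenergic receptors and acts in their traffic through endosomes, read 1.97, 3.16, 3.42 and 2.26 in fasted replicates 1 to 4, against 1.86, 1.63, 2.47 and 2.41 in satiated replicates 1 to 4. The groups overlapped, and the log2 fold change of 0.35 ± 0.22 did not pass (adjusted p = 0.315 in limma, 95% interval -0.16 to 0.87). Without fasted replicate 3 it was 0.23 (adjusted p = 0.548).

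Arrdc1 sits at the plasma membrane and recruits Tsg101 to bud small vesicles outward. Its scaled signal was 0.348, 0.430, 0.411 and 0.428 in fasted replicates 1 to 4, against 0.338, 0.334, 0.316 and 0.353 in satiated replicates 1 to 4. The overlap came from fasted replicate 1 and satiated replicate 4 alone, but the difference was small: a log2 fold change of 0.27 ± 0.11, which did not pass (adjusted p = 0.143 in limma, unadjusted p = 0.0474, 95% interval 0.00 to 0.53).

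Counted by gene, 1 of the 5 members rose, Txnip, and none fell, where 20.2% of the 20209 genes and unnamed probes tested changed at an adjusted p under 0.05, 9.82% higher and 10.4% lower. By gene, the groups of Txnip alone did not overlap, as held for 27.6% of genes. The share in the family was close to that of the array as a whole. With the replicate number as a block, 32.1% of all genes passed and again Txnip alone among the members (adjusted p = 0.0177). Counted by probe, 3 of the 7 passed, all higher, where 21.1% of 26488 single probes passed, 10.6% higher. Of these 3 probes, 2 read the same gene, Txnip. The same 3 were the ones whose groups did not overlap, as held for 28.1% of single probes.

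**Figure D3:**
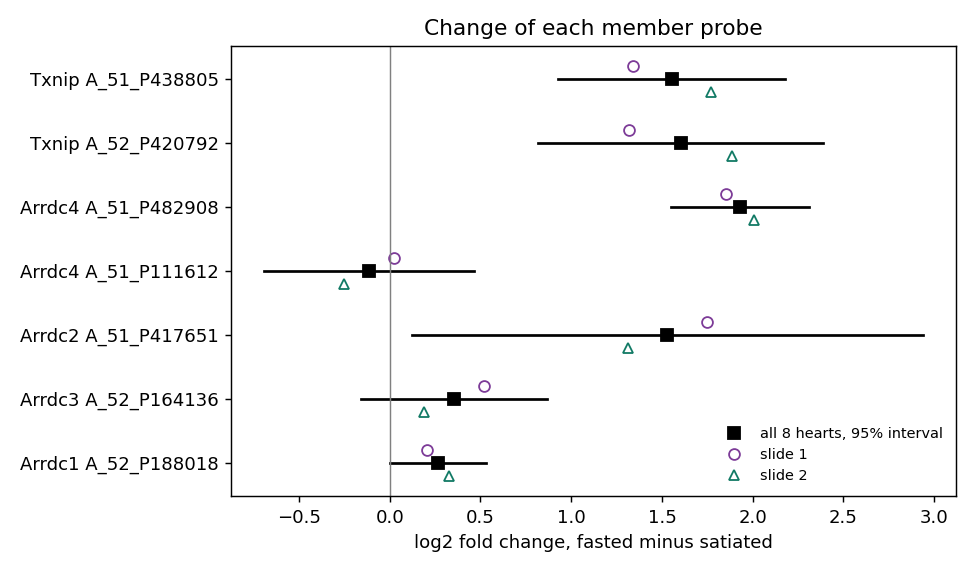
Log2 fold change, fasted minus satiated, of the 7 member probes (horizontal axis), as squares with 95% intervals over all 8 hearts and open symbols for each slide alone. The 3 probes at 1.55 to 1.93 have intervals clear of 0 over all 8 hearts. Their slide points, drawn without intervals, lie above 0. The intervals of Arrdc2 (0.12 to 2.94) and Arrdc1 (0.0039 to 0.53) also lie above 0. Intervals are not adjusted for the number of probes tested, and neither Arrdc2 nor Arrdc1 passed after adjustment. Arrdc4 probe A_51_P111612 lies at -0.11.

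Whether members changed by unequal amounts was tested for all 10 pairs with within-array differences of log2 signal. The change of Txnip exceeded that of Arrdc1 by 1.29 and that of Arrdc3 by 1.20, both with an exact permutation p of 0.0286 (two-sided) and an adjusted p of 0.143 over the 10 pairs. Since 0.0286 is the smallest p of this design, a pair could not pass such an adjustment alone. Txnip and Arrdc2 differed by 0.02 (exact p = 0.971), a difference whose sign turned without any of fasted replicates 1 and 4 and satiated replicates 3 and 4 (-0.37 to -0.08). The change of Arrdc2 exceeded that of Arrdc3 by 1.18 (exact p = 0.0571, adjusted p = 0.190). The other 6 pairs had exact p-values of 0.0857 to 0.629, and none of the 10 passed after adjustment. Arrdc4 entered these pairs through probe A_51_P111612, and Txnip, Arrdc1, Arrdc2 and Arrdc3 minus Arrdc4 were 1.67, 0.38, 1.64 and 0.47. With its other probe, taken after its values were seen, they were -0.38, -1.66, -0.40 and -1.58, and again no pair passed.

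Genes with the most similar profile were found by the root mean square difference of log2 values over the 8 arrays, after each gene was centred on its own mean, among 13797 named genes. Nearest to Txnip were Slc6a4, the serotonin transporter, at 0.20, and Slc43a1, a transporter of large neutral amino acids, at 0.20. Slc43a1 had scaled signals of 0.717, 0.933, 0.807 and 0.629 in fasted replicates 1 to 4, against 0.374, 0.229, 0.243 and 0.273 in satiated replicates 1 to 4, so that satiated replicate 1 was the highest of its group for it too. Slc6a4 was well above background on 6 of the 8 arrays only. Genes picked by profile share high and low hearts, and size of change, with their member, so such likeness is no separate result.

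Nearest to Arrdc2 were Gadd45b, a stress-inducible growth arrest gene, at 0.42, and Fkbp5, a glucocorticoid-induced co-chaperone of the glucocorticoid receptor, at 0.51. Gadd45b read 2.68, 6.16, 11.6 and 2.44 in fasted replicates 1 to 4, against 2.26, 0.689, 1.31 and 1.51 in satiated replicates 1 to 4. Fkbp5 read 1.91, 3.25, 3.18 and 2.27 in fasted replicates 1 to 4, against 1.73, 0.489, 0.800 and 2.496 in satiated replicates 1 to 4. All 3 genes were lowest in satiated replicate 2, and fasted replicates 2 and 3 were the highest hearts for each of them. Such sharing follows from the choice by profile. Like Arrdc2, neither passed (adjusted p = 0.0515 for Gadd45b and 0.127 for Fkbp5 in limma).

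For the Arrdc4 probe that rose, the nearest genes were Eef2k, the kinase that slows translation elongation, at 0.08, and Slc7a8, the light chain of an amino acid exchanger, at 0.11. Eef2k rose by 1.98 and Slc7a8 by 1.95 on the log2 scale (adjusted p = 0.000597 and 0.000394 in limma). The other Arrdc4 probe lay nearest to Ripk1 (0.13) and Ubtd2 (0.14), neither of which changed past the threshold. Spg21 (0.06) and Ccdc130 (0.07) lay nearest to Arrdc1, and Kbtbd11 (0.11) and Cbr3 (0.12) nearest to Arrdc3. All 4 missed the threshold too.

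Around the family, genes of 7 lists were followed in the same comparison. The median log2 fold change over all genes tested was -0.0042, and the counts below stand beside the 20.2% of all genes that passed, or 32.1% with the replicate number as a block. In the thioredoxin system, whose reduced thioredoxin Txnip binds, 1 of 14 measured genes rose and 1 fell, a smaller share than over all genes, with a list median of 0.02. Without the filter on dim probes 1 of the 14 passed. Fewer genes passed over the whole array in that setting too, 2225 of a larger set against 4077. Txnrd1, the cytosolic thioredoxin reductase, had scaled signals of 18.1, 12.5, 17.2 and 15.1 in fasted replicates 1 to 4, against 10.3, 9.95, 9.49 and 8.64 in satiated replicates 1 to 4, and rose by 0.70 ± 0.14 (adjusted p = 0.0126). Prdx1, a cytosolic peroxiredoxin that thioredoxin reduces, fell (-0.48 ± 0.10, adjusted p = 0.0151), with 20.03 to 23.1 in fasted and 28.3 to 30.5 in satiated hearts, a call lost without the filter on dim probes (adjusted p = 0.0641). Neither group pair overlapped. Txn1, thioredoxin itself, had a value of 0.06 ± 0.12 (adjusted p = 0.773). All of these are limma values.

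Among 12 transcription factors known to act on Txnip, 1 rose and 1 fell (median 0.04), and 1 passed with the mean of probes or without the filter on dim probes. Mlxip, which encodes MondoA, was at 1.85, 1.75, 2.83 and 1.95 in fasted replicates 1 to 4, against 1.23, 1.23, 1.38 and 1.43 in satiated replicates 1 to 4. It rose by 0.65 ± 0.17 (adjusted p = 0.0304), but the call was lost without any 1 of 6 arrays, all but those of fasted replicates 2 and 3 (adjusted p = 0.0509 to 0.0817). It was also lost without the filter on dim probes, with the median of each array and with the deposited ratios (adjusted p = 0.0845, 0.0640 and 0.0648). Mlxipl, which encodes ChREBP, had -0.40 ± 0.19 and their partner Mlx 0.26 ± 0.13, and neither passed. Nr3c1, the glucocorticoid receptor, fell (-0.65 ± 0.13, adjusted p = 0.0126), with 3.26 to 3.92 in fasted and 4.97 to 6.63 in satiated hearts. With the mean of its probes the value was -0.60 and the call was lost (adjusted p = 0.135). Foxo1 and Foxo3 stood at 0.25 ± 0.14 and 0.89 ± 0.51 and did not pass.

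Of 14 other measured glucose-responsive targets of ChREBP and MondoA, 0 rose and 1 fell (median -0.35) in limma, and 3 passed with the replicate number as a block. Bhlhe40, a circadian repressor, fell (-0.67 ± 0.14, adjusted p = 0.0125), with 1.90 to 2.61 in fasted and 3.14 to 3.88 in satiated hearts. Fasn and Pnpla3 had the lowest values of the list, -1.54 ± 0.53 and -1.92 ± 0.64, and did not pass (adjusted p = 0.0781 and 0.0700 in limma). Values above 0 belonged to Gpd1 (0.83 ± 0.28), Klf10 (0.40 ± 0.16), Acaca (0.38 ± 0.47) and G6pc (0.31 ± 0.52). None of those passed either (adjusted p = 0.0729, 0.126, 0.623 and 0.733 in limma).

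Nedd4-family ligases ubiquitinate membrane proteins and bind proline-tyrosine motifs. Of 9 measured genes of Nedd4-family ligases and adaptors, 2 rose and 0 fell (median 0.23), a share close to the 20.2% over all genes. With the replicate number as a block 4 passed, where 32.1% of all genes did. Wwp2 had scaled signals of 10.6, 9.97, 18.2 and 12.2 in fasted replicates 1 to 4, against 6.14, 5.52, 6.75 and 7.18 in satiated replicates 1 to 4. Its rise was 1.94-fold (0.96 ± 0.20, adjusted p = 0.0140). Nedd4l rose 1.65-fold (0.72 ± 0.12, adjusted p = 0.00469), with 0.595 to 0.722 in fasted and 0.351 to 0.418 in satiated hearts. Nedd4 itself had 0.23 ± 0.13 and Wwp1 -0.12 ± 0.10, and neither passed. Itch was on the array but below the filter.

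Of 7 measured genes of membrane proteins reported as cargo of alpha-arrestins, 1 rose, 2 fell and 4 did not pass (median -0.49). With the replicate number as a block 6 passed. Adrb1, the main beta-adrenergic receptor of heart muscle, fell 3.31-fold (-1.73 ± 0.19, adjusted p = 0.00122): it read 0.786, 1.03, 0.600 and 0.708 in fasted replicates 1 to 4, against 2.37, 3.15, 2.58 and 2.14 in satiated replicates 1 to 4.

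Of the genes of glucose transporters that Txnip binds, Slc2a4, which encodes the insulin-responsive GLUT4, fell (-0.67 ± 0.15, adjusted p = 0.0181). It read 61.8, 57.3, 67.0 and 48.2 in fasted replicates 1 to 4, against 106.2, 101.6, 85.0 and 80.0 in satiated replicates 1 to 4, without overlap. Its adjusted p was 0.0557 without satiated replicate 2 and 0.0580 without the filter on dim probes. Slc2a1, which encodes GLUT1, had 0.68 ± 0.26 and did not pass (adjusted p = 0.104). Insr, the insulin receptor, rose 1.95-fold (0.97 ± 0.16, adjusted p = 0.00529), with 3.78 to 5.51 in fasted and 2.07 to 2.65 in satiated hearts. All are limma values.

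Among 12 measured genes of Arrdc1 partners in vesicle budding, 1 rose and 1 fell (median 0.13), a smaller share than over all genes. The number that passed was 6 with the replicate number as a block, 1 with normexp, 0 in limma without the filter on dim probes, and 0 to 2 leaving out 1 heart. Vps37b, a subunit of the ESCRT-I complex, rose by 0.71 ± 0.18 (adjusted p = 0.0277), with 3.85 to 5.75 in fasted and 2.16 to 3.25 in satiated hearts. That call was lost without any 1 of fasted replicate 1 and satiated replicates 1, 3 and 4 (adjusted p = 0.0524 to 0.0733) and without the filter on dim probes (adjusted p = 0.0767). Pdcd6ip, the ESCRT adaptor ALIX, fell (-0.56 ± 0.17, adjusted p = 0.0484), lost its call without any 1 of the arrays but that of fasted replicate 3 (adjusted p = 0.0529 to 0.127), and had 0.14 as the mean of its probes. Tsg101, which Arrdc1 binds directly, had 0.06 ± 0.12 (adjusted p = 0.789).

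Of 6 measured genes of proteins with a related fold, 0 passed in limma or with the replicate number as a block. Among them were Arrb1 (0.01 ± 0.14) and the retromer subunit genes Vps26a (-0.03 ± 0.11) and Vps26b (-0.05 ± 0.26). The smallest p in that list belonged to Vps26c (0.21 ± 0.12, adjusted p = 0.247). Arrdc5, the remaining alpha-arrestin on the array, was well above background in 2 fasted and 3 satiated hearts, and read 0.00934 to 0.0323 in fasted hearts and 0.0191 to 0.252 in satiated hearts.

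**Figure D4:**
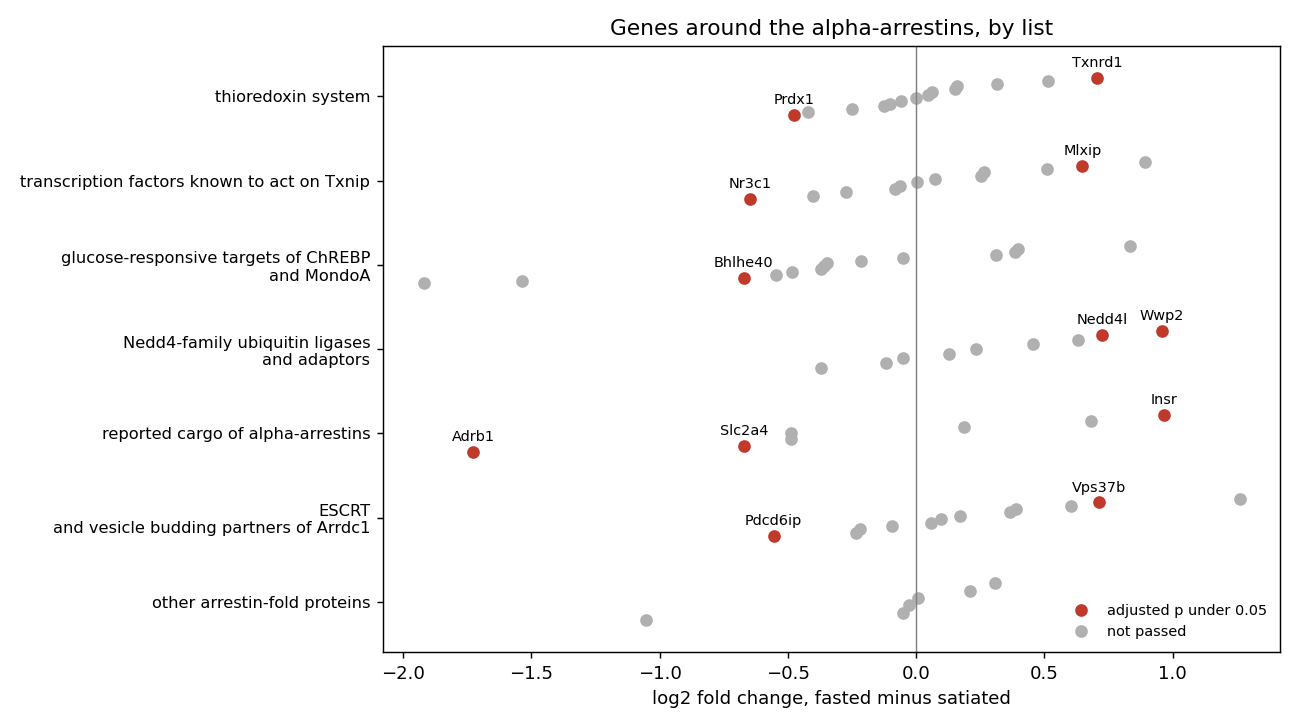
Log2 fold change, fasted minus satiated (horizontal axis), of each measured gene in 7 lists of genes around the alpha-arrestins, 1 point per gene, named and coloured where the adjusted p was under 0.05. Adrb1 at -1.73 is the lowest of the genes that passed and Insr at 0.97 the highest, and the list of related folds has no gene that passed.

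Across the whole array, the arrays lay on 2 slides, each with 2 fasted and 2 satiated hearts, and 66.6% to 68.9% of probes were well above background on slide 1 and 54.4% to 55.7% on slide 2. No probe was saturated on any array. The 6 cardiomyocyte markers were well above background on all 8 arrays, and 1 of them, Actc1, fell. Of 5 fibroblast markers 1 rose, Dcn (0.56), and 3 fell, Col1a1 (-1.68), Col1a2 (-0.98) and Tcf21 (-0.63). Their summed scaled signal, in which bright probes weigh most, was 226 to 281 in fasted and 202 to 218 in satiated hearts. That sum was higher in fasted hearts although 3 of the 5 markers fell. The 2 measured neutrophil markers, S100a8 and S100a9, rose, with sums of 1.57 to 5.17 over that list in fasted and 1.05 to 1.76 in satiated hearts, and of 3 measured B cell markers 1 rose, with sums of 0.791 to 2.23 in fasted and 0.510 to 0.778 in satiated hearts. The B cell marker Cd79a was well above background on 1 fasted array and on 0 satiated arrays. None of the measured endothelial, macrophage, adipocyte, red blood cell and skeletal muscle markers passed in limma. The part of these cells in the changes of the family was not tested.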

How the data were processed

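Per the labels, Cy3-labelled total RNA of 8 hearts was hybridised. The deposited scanner tables give spot intensity, linear and already background-subtracted by Agilent Feature Extraction, per the file headers, and not normalized between arrays. Slide 1 was extracted with version 10.5.1.1 and slide 2 with 10.7.3.1, per the file headers; version 9.1 stands in the submitters' processing notes. The deposited series table holds a linear ratio per probe and array, and the sources used here do not state its making. For 99.7% of the 41174 probes set against the scanner values, the difference was a constant for the probe plus that of the array, to within 0.01 (log2). Column medians were 0.887, 0.860, 1.02 and 0.960 for fasted and 0.876, 0.901, 0.954 and 0.980 for satiated replicates 1 to 4. Its scale is linear and it runs the way the intensities do; what each probe and array was divided by is unknown.

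Processed intensities were put on the log2 scale and lowered by the 75th percentile of their array. Left out were control spots (1639 of 45018), outlier spots, and probes well above background on fewer than 4 arrays, which left 26488 probes. Symbols came from RefSeq through the accession (26690 probes with 1, none with several, 14484 unnamed here), with the brightest kept probe standing for a gene. Groups were compared with limma 3.58.1 in R 4.3.3 (figures with matplotlib 3.10.9), two-sided, Benjamini-Hochberg adjusted over all 20209 genes and unnamed probes, without a slide term. The fit and the permutation test were tested on simulated data. Named genes were the 5 members, up to 4 called genes per list or the smallest p, and the 2 nearest profiles of each member. Some list genes that did not pass were named too, chosen for their role or direction after their values were seen. The profiles of the second Arrdc4 probe were added after its values were seen. Members and lists were chosen with earlier results of these data known, and 2 genes of the lists are not reported here and enter no list count. The labels number separate samples without naming litters, so the p-values cover only the spread of these samples, which may be technical.

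Same-numbered hearts of the groups deviated together from their group means (correlations of 0.33 to 0.49 over genes), and numbers 1 and 2 lay on slide 1, 3 and 4 on slide 2. After slide means were removed these correlations were -0.11 and 0.05, so little shared deviation by number was left within slides. The replicate number as a block was run beside the slide as a block. The number of arrays, 4 per group, limits what the comparisons can detect. Normexp was run on the median signal, since the tables analysed hold no mean signal. The alternatives were blocks for slide or replicate number, background correction, normalization, the filter on dim probes, the probe taken for a gene, array weights, the deposited ratios, an exact permutation test, each slide alone, and each heart left out in turn.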

Additional observations from a re-analysis of the deposited data

Results flagged for a closer look

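For Arrdc5, an alpha-arrestin that is not among the 5 genes examined, 1 heart stood apart within the satiated group on the log2 scale. Satiated replicate 4 lay away from the other 3 by 0.836 of the group's range, at a scaled signal of 0.252 where the others were at 0.0191 to 0.0291. That share is above Dixon's 95% critical value for 4 samples, which chance passes in about 1 of 20 groups. No group of the 7 member probes passed it.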

How the results depend on the processing

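Txnip rose in all 23 alternatives, by 1.34 to 1.83, and kept its call in 21. On slide 1 alone the adjusted p was 0.127 (1.34), and on slide 2 alone 0.0766 (1.77). Its value stayed at 1.55 with either block, either filter, every probe on its own, the other Arrdc4 probe and the permutation test. These settings kept its probe and group means, so only its p could change. The permutation p of 0.0286 is unadjusted and the smallest of this design. The second Txnip probe also lost its call on slide 1 (1.32) and slide 2 (1.89) alone. Arrdc4 probe A_51_P482908 lost its call on slide 2 alone (2.01, adjusted p = 0.0648). Each slide alone has 2 hearts per group. Leaving out 1 heart gave 1.43 to 1.83 for Txnip, 1.43 to 1.96 for its second probe and 1.81 to 2.02 for that Arrdc4 probe, with no call lost, 0.24 to 0.34 for Arrdc1, 0.995 to 1.85 for Arrdc2, 0.23 to 0.49 for Arrdc3 and -0.25 to 0.049 for the brighter Arrdc4 probe. Arrdc1, Arrdc2 and Arrdc3 passed in no alternative. The Arrdc4 value turned positive as the mean of its probes (0.91), with array weights (0.029), on slide 1 alone (0.022) and with the other probe, an alternative chosen after seeing the data (1.93). The number of members changed was 1, but 2 with the mean of probes, with every probe on its own or with the other Arrdc4 probe, and 0 on either slide alone; leaving out 1 heart it stayed 1.

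Of the pairs, Txnip minus Arrdc2 turned with quantile normalization (-0.035) and on slide 1 (-0.41), and ran from -0.37 to 0.43 leaving out 1 heart; Arrdc1 minus Arrdc3 turned on slide 2 (0.14) and ran from -0.20 to 0.029. Arrdc1 and Arrdc3 minus Arrdc4 turned with the mean of probes (-0.64 and -0.56). With the other Arrdc4 probe, Txnip, Arrdc1, Arrdc2 and Arrdc3 minus Arrdc4 were -0.38, -1.66, -0.40 and -1.58. No pair passed after adjustment in any of these. On 1 slide alone, with 2 hearts per group, the exact test has too few divisions for any pair to pass. Leaving out 1 heart, the other pairs gave 1.15 to 1.56 for Txnip minus Arrdc1, 1.01 to 1.52 for Txnip minus Arrdc3, 1.42 to 2.08 for Txnip minus Arrdc4, -1.52 to -0.73 for Arrdc1 minus Arrdc2, 0.21 to 0.59 for Arrdc1 minus Arrdc4, 0.76 to 1.40 for Arrdc2 minus Arrdc3, 0.99 to 2.10 for Arrdc2 minus Arrdc4 and 0.18 to 0.74 for Arrdc3 minus Arrdc4. Pdcd6ip was 0.14 as the mean of its probes, and its call was also lost with normexp, quantile normalization, the median of each array, no filter on dim probes and the deposited ratios (adjusted p = 0.0522 to 0.127).

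Over all genes 4077 passed, but 7180 with the slide as a block, 6490 with the replicate number as a block, 2225 without the filter on dim probes, 1880 on slide 1, 1 on slide 2, 2522 without satiated replicate 2 and 2497 without satiated replicate 4 (2497 to 3692 leaving out 1 heart). The counts of the lists with the slide as a block stand beside those 7180 of 20209 genes and unnamed probes. Of the lists, 7 of 12 (vesicle budding), 5 of 9 (Nedd4 family), 6 of 14 (glucose-responsive) and 5 of 7 (cargo) genes passed. In the others it was 3 of 14 (thioredoxin), 4 of 12 (factors) and 0 of 6 (related folds). The replicate block changed no call of a member probe. The cause of these differences was not tested. Fewer probes were well above background on slide 2, which limits dim probes there.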
